A study of Mus musculus with 2 samples.

Results

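The 38 genes described here encode the transporters and enzymes of glycolysis and lactate export, the hypoxia-inducible factor Hif1a with prolyl hydroxylases that act on it, kinases that restrain pyruvate dehydrogenase, and the pentose phosphate pathway. They were chosen by gene symbol as members of these pathways, with no threshold on a measured value but with earlier results of these data known, and are 38 of 55536 mouse genes in the tables. Macrophages were differentiated in culture from the marrow of C57BL/6J mice and stimulated for 120 minutes at 100 ng/ml, and their polyadenylated RNA was sequenced. The free-text description names the stimulus as lipid A, the membrane anchor of bacterial lipopolysaccharide, whereas the treatment and source fields name lipoprotein A. There are 2 libraries, both of this 1 group, and the labels number them as replicates 1 and 2. Both point to a single donor record, with sex and age not recorded, so separate animals are not stated and the spread between the libraries may be partly technical. No unstimulated or other group enters, and the question the data can answer is which of the alternative genes and transcripts at each step were present in these cells, and how closely both libraries agreed.

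Glycolysis splits glucose into pyruvate, and lactate dehydrogenase turns pyruvate into lactate with recovery of NAD+. Most steps can be run by several enzymes from separate genes (paralogs) that differ in regulation and tissue use. In macrophages, sensing of bacterial lipids is known for raising glycolysis and for stabilising Hif1a, a transcription factor that the prolyl hydroxylases mark for destruction when oxygen is present. The pentose phosphate pathway branches off at glucose 6-phosphate and supplies NADPH, used by the oxidative burst and by lipid synthesis, and ribose for nucleotides.

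Several of these genes make alternative transcripts whose choice changes the protein, and the alternative exons are shown first because the isoform results turn on them. Sequences of exons are from GENCODE M21 transcripts, positions are in build mm10, and letters run 5′ to 3′ on the strand of the gene. Pkm, the pyruvate kinase of most tissues, has a pair of mutually exclusive coding exons of 167 bases. As background, the upstream exon gives the PKM1 protein and the downstream exon gives PKM2, an isoform whose activity is regulated allosterically. The exons lie at chr9:59675029-59675195 and chr9:59675568-59675734 on the plus strand and are 61.7% identical. Capitals mark the 64 positions at which they differ.
Pkm upstream exon: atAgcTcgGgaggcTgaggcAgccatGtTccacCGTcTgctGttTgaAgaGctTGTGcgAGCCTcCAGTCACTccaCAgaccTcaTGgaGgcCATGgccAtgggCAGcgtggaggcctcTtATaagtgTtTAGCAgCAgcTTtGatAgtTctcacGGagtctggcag
Pkm downstream exon: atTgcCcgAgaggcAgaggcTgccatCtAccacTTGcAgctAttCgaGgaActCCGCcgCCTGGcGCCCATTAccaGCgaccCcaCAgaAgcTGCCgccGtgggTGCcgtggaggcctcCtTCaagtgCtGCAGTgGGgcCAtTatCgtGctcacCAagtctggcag

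Pfkp, the platelet-type phosphofructokinase, has a similar pair of 153 bases each. The exons lie at chr13:6597859-6598011 and chr13:6593101-6593253 on the minus strand, are 58.8% identical and differ at 63 positions, marked by capitals. Pfkp-207 carries the upstream exon and Pfkp-201 the downstream exon, and both have 2352 coding bases.
Pfkp upstream exon: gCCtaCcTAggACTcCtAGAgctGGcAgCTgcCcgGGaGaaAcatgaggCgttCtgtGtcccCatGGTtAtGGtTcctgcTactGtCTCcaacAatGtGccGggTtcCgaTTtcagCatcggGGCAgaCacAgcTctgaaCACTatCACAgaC
Pfkp downstream exon: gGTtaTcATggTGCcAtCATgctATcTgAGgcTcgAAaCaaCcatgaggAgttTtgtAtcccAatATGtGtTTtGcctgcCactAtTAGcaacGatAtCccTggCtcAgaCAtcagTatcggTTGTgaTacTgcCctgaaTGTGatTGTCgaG

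Pfkfb3, which makes fructose 2,6-bisphosphate, the strongest activator of phosphofructokinase, can start at chr2:11553827-11554077 or at a downstream first exon, chr2:11501625-11502101, on the minus strand. It also has a coding cassette exon of 87 bases at chr2:11481247-11481333, which accounts for the 1647 coding bases of Pfkfb3-214 against 1560 in Pfkfb3-206.
Pfkfb3 cassette exon: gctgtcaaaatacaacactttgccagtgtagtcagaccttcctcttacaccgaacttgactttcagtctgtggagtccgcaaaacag

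Promoter windows, from RefSeq (GRCm38.p6), ran from 250 bases before to 50 after each gene start and were searched for the core of the hypoxia response element, ACGTG or GCGTG, on both strands. A palindromic CACGTG counts as 2 matches, and a match is a description of letters, not a site of binding. Of 37 genes with a window, 33 (89.2%) held a match in at least 1 window, with Eno2, Gpi1, Rpe and Tpi1 holding none. Over all 27025 genes with a window the share was 46.7%, and over the 7873 of them with a TPM (length-corrected transcript level, defined below) of 1 or more in both libraries it was 69.1%. Window by window, 81.1% of the 53 windows of these genes held a match, against 43.8% of 32851. The richest window was that of Ldha, the muscle-type subunit of lactate dehydrogenase, with 7 matches, followed by Hk1 and Slc16a1 with 5 each. The parts before the start are shown for Ldha and Slc16a1, with matches in capitals, at chr7:46845554-46845803 and chr3:104638414-104638663, both on the plus strand, because these genes are among the 3 with the most matches in a window. That of Hk1 is not shown because 186 of its 250 bases lie in annotated exons.
Ldha promoter: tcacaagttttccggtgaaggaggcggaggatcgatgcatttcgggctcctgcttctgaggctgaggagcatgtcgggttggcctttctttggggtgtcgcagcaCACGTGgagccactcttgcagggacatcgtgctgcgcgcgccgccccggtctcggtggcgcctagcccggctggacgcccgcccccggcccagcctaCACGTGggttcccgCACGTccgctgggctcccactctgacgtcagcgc
Slc16a1 promoter: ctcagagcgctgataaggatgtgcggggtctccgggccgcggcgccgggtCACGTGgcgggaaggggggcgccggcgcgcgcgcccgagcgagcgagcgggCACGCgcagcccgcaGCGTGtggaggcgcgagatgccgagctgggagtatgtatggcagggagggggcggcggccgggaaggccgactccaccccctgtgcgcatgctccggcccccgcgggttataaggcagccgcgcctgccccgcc

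Of the genes at the highest levels, Gapdh held 3 matches, Aldoa 1, and Pkm 2, each in the window of the gene with the most. The windows of Aldoa held 1, 1 and 0, and those of Pkm 0 and 2. Pfkp and Slc2a6, each the leading gene of its step, held 4. At Pfkfb3 the window at the downstream start held 4 matches and the window at the upstream start 1.

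The cells carried the macrophage markers at high levels in both libraries. All 8 macrophage markers passed 10 TPM in both, led by Lyz2 (13518 and 19283 TPM), Cd68 (3236 and 2939), Adgre1 and Csf1r, with a sum of 18643 and 24233 TPM. The 7 granulocyte markers summed to 516.8 TPM in replicate 1 and 67.2 in replicate 2, and the 4 platelet markers, nearly all of it Pf4, to 932.3 and 237.8. No T cell, B cell, erythroid or stromal marker reached 1 TPM in both libraries. Expected counts on mouse genes totalled 33272561 in replicate 1 and 50266361 in replicate 2, so that the upper limit for a gene without reads (3 counts) was 0.0902 and 0.0597 CPM. Across 12178 genes the coefficient that edgeR names biological variation was 21.5% between the libraries. With a single donor record it may be partly technical.

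Both libraries had 37 of the 38 genes at 1 TPM or above, 26 at 10 or above and 16 at 100 or above. TPM, transcripts of a gene per 1000000 transcripts, corrects for transcript length and is the scale on which levels of different genes are compared here. Egln3 was the exception, at 0.34 and 0.20 TPM from 18 and 16 counts. Together they held 5697.9 TPM in replicate 1 and 5090.1 in replicate 2, or 0.570% and 0.509% of all mouse gene TPM. The median level of the 38 genes was 56.6 TPM, against 14.1 TPM over the 10271 genes at 1 TPM or more in both libraries, and 25 of the 37 lay above that median. Gapdh alone made up 24.6% and 24.2% of the sum. The next levels were those of Aldoa, Pkm, Ldha, Taldo1 and Pgam1, enzymes of glycolysis and lactate formation with 1 enzyme of the pentose phosphate pathway among them.

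**Figure D1:**
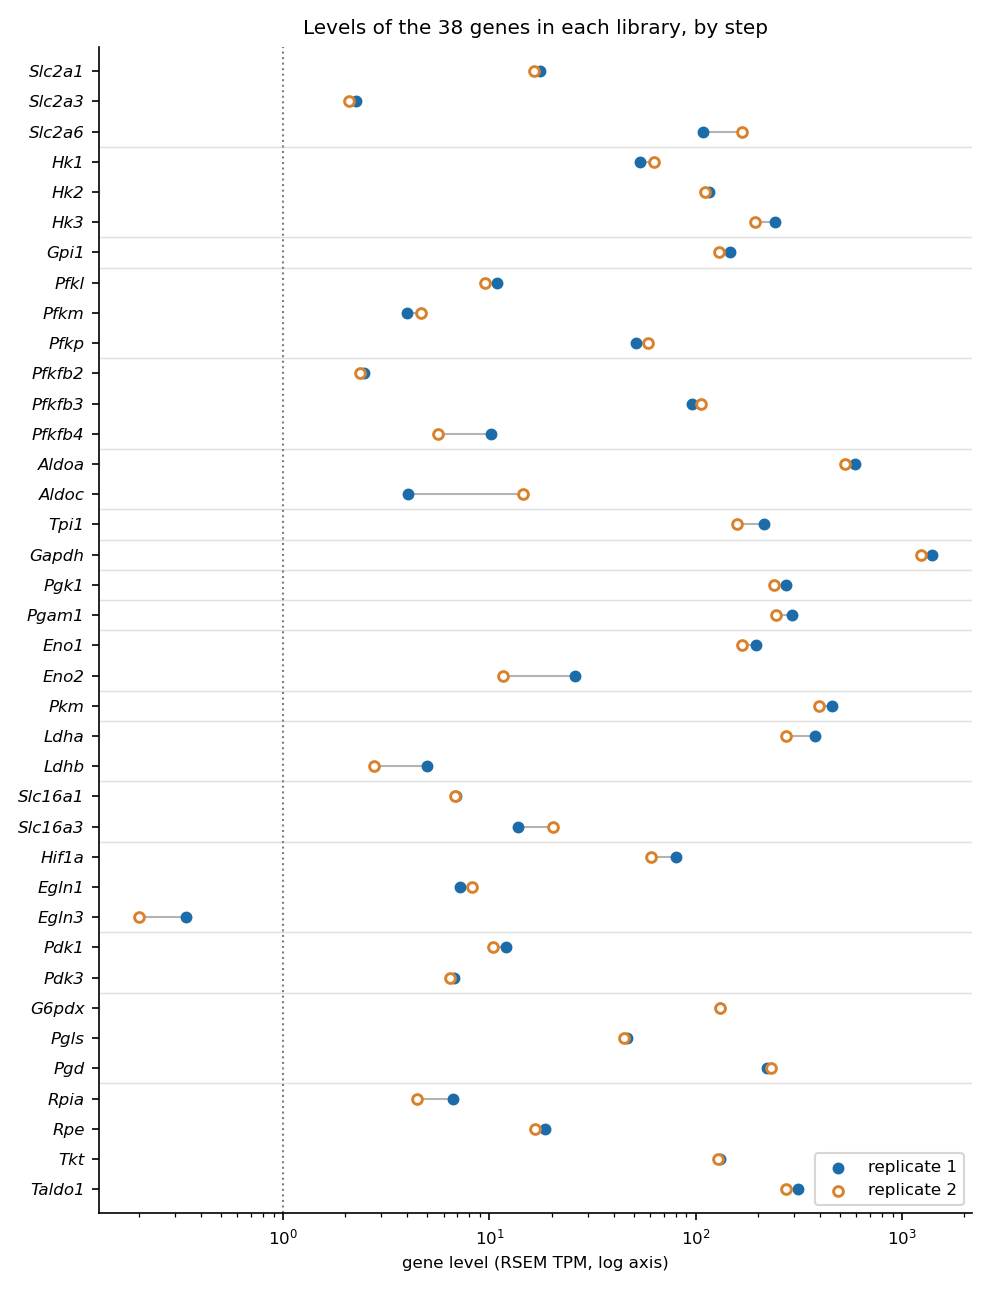
Level of each of the 38 genes in TPM on a log axis, with replicate 1 as filled and replicate 2 as open points joined by a line, grouped by pathway step. Levels run from 0.20 TPM for Egln3 to 1402 TPM for Gapdh, and the widest gap between libraries is at Aldoc.

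Glucose enters through transporters of the Slc2a family. Slc2a6, a transporter found on lysosomal membranes of macrophages, was at 107.9 TPM in replicate 1 and 168.1 in replicate 2. Slc2a1, the widespread glucose transporter of the plasma membrane, was at 17.6 and 16.5, and Slc2a3, a high-affinity transporter, at 2.25 and 2.09. The order was the same in both libraries and the groups of values did not overlap. Slc2a6 thus held 87.3% ± 3.92 (SD, n = 2) of the TPM of these transporters. That share pools transporters of different membranes and does not rank routes of glucose entry. Among other family members measured, Slc2a8 reached 9.21 and 7.46 TPM and Slc2a9 5.62 and 5.19, both above Slc2a3, and with them the share of Slc2a6 was 79.9% ± 6.05. Slc2a2 and Slc2a10 had no RSEM count in either library, while kallisto gave them 6.1 and 3.1 counts in replicate 2 and none in replicate 1.

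Hexokinases trap glucose as glucose 6-phosphate. Hk3, a form found mainly in myeloid cells, was highest at 242.5 and 193.6 TPM. Hk2, the inducible form that binds mitochondria, followed at 115.8 and 111.0 TPM, and Hk1, the housekeeping form, at 53.5 and 62.7. The values of the 3 genes did not overlap, and their shares were 55.8% ± 4.38, 29.2% ± 1.49 and 15.0% ± 2.90 (SD, n = 2). Hkdc1 had no count in either library. Adpgk, which phosphorylates glucose with ADP, was at 13.4 and 9.09 TPM.

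The level of Hk2 depended on the quantification. In the kallisto tables Hk2 was at 65.7 and 62.5 TPM, against a mean of 52.3 for Hk1. RSEM gave 38.4% and 33.5% of the Hk2 TPM to Hk2-202, a non-coding transcript of 594 bases, but only 3.62% and 2.92% of the gene's counts. Kallisto gave that transcript none. Across all expressed genes the median log2 difference of kallisto from RSEM was -0.23, and across the 38 genes -0.25, while Hk2 was at -0.82.

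Gpi1, which converts glucose 6-phosphate into fructose 6-phosphate, was at 147.1 and 130.0 TPM. Its leading transcript Gpi1-201 held 73.0% ± 2.09 of the TPM, and Gpi1-207, annotated for nonsense-mediated decay, 20.9% ± 1.22. Gpi1-207 is 933 bases long and held only 6.32% and 6.67% of the gene's counts. Phosphofructokinase commits the sugar to glycolysis, and Pfkp was its main gene at 51.6 and 58.7 TPM. Pfkl, the liver type, was at 10.9 and 9.51 TPM, and Pfkm, the muscle type, at 4.0 and 4.66. The share of Pfkp was 79.1% ± 2.09, and the order held in both libraries.

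The enzymes that set the level of fructose 2,6-bisphosphate were likewise led by 1 gene. Pfkfb3 was at 95.8 and 105.6 TPM, Pfkfb4 at 10.1 and 5.62, and Pfkfb2 at 2.47 and 2.36, with Pfkfb3 holding 90.7% ± 3.26. Pfkfb4 is a case where the scales part: its TPM differed by more than its counts, 448 and 536, whose ratio after scaling was -0.17 on the log2 scale. Its transcripts were also assigned differently, with Pfkfb4-203 holding 28.4% of its TPM in replicate 1 and 51.4% in replicate 2. The leading transcript in replicate 1 was Pfkfb4-204, a retained intron of 439 bases. It held 30.7% of the TPM there (3.12 TPM) from only 11.7 counts, and 0% in replicate 2. Tigar, which lowers fructose 2,6-bisphosphate, was at 3.95 and 2.06 TPM.

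Aldolase cleaves fructose 1,6-bisphosphate. Aldoa, the muscle-type aldolase, was at 588.5 and 530.2 TPM and held 98.3% ± 1.4 of the TPM of the pair with Aldoc. Aldoc, the brain-type aldolase, was at 4.02 TPM in replicate 1 and 14.5 in replicate 2, from 161 and 983 counts. Replicate 2 was the high library for Aldoc, by 2.18 on the log2 scale, the largest difference between the libraries among these genes.

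Tpi1, which interconverts the triose phosphates, was at 215.3 and 159.3 TPM. Gapdh, which makes the first NADH of glycolysis, was the highest of the 38 in both libraries at 1402 and 1233 TPM. It ranked at the 99.1 percentile of expressed genes. Pgk1, which makes the first ATP, was at 274.9 and 240.4 TPM, and Pgam1, the mutase that follows, at 293.2 and 244.2. Replicate 1 was higher for each of these genes on the TPM scale, as it was for the sum. After scaling of counts, the log2 ratios of replicate 2 over replicate 1 were -0.32 for Tpi1, -0.22 for Gapdh, -0.07 for Pgk1 and -0.14 for Pgam1.

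Gapdh and Pgk1 have near-identical copies elsewhere in the genome, mostly pseudogenes, and reads may be divided between them. At 95% identity or more over at least 200 bases, Gapdh matched 78 other genes, of which 10 had at least 10 counts in either library. All 78 together held 1918.6 and 2188.9 counts, 6.45% and 6.38% of those of Gapdh. Gm7336 had 738.4 and 879.0 counts in RSEM and 147.1 and 93.3 in kallisto. The copies Gm12070, Gm2606, Gm3272, Gm14760, Gm13394, Gm5559 and Gm10358 had 29.8 counts or fewer each. Gm10359 and Gm12671, each 100% identical over 1002 bases, were given the same counts, 516.5 and 591.8, while kallisto gave both none. The Pgk1 copy Gm5537 had 833.4 and 875.2 counts in RSEM and 275.8 and 553.1 in kallisto. For the other genes the copies with 10 counts or more were Eno1b and Gm4735 for Eno1, Pgam1-ps2, Gm1840 for Gpi1 and Gm6560 for Pkm, at 2.93% or less of the counts of each gene. Kallisto put Gapdh at 993.3 and 729.0 TPM, a log2 difference of -0.61. It gave Gapdh-208, a non-coding transcript of 483 bases, 0% and 1.09% of the gene's TPM, against 20.5% and 31.7% in RSEM. On RSEM counts Gapdh-208 held 4.51% and 7.86% of the gene.

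Enolase makes phosphoenolpyruvate. Eno1, the form of most tissues, was at 196.4 and 168.3 TPM and held 90.9% ± 3.72 of the pair with Eno2. Eno2, known as neuron-specific enolase, was at 26.0 TPM in replicate 1 and 11.6 in replicate 2, from 916 and 674 counts. Replicate 1 was the high library for Eno2. Eno3, the muscle form, was at 2.95 and 1.85 TPM. Eno1b, a copy 99.5% identical to Eno1, was at 3.99 and 3.0 TPM in RSEM from 131.9 and 145.9 counts, and kallisto gave it 4.8 and 4.1 counts, so its level is uncertain.

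Pkm was at 457.7 and 397.4 TPM. Transcripts with the downstream exon held 83.1% ± 0.547 (SD, n = 2) of the TPM of transcripts with either exon, and those with the upstream exon 16.9% ± 0.547. Kallisto gave 80.1% ± 0.735 for the downstream exon. The majority form was thus the one known as PKM2 in both libraries and both quantifications, and in RSEM the PKM1 form held 16.6% and 17.3%. Pkm-201 (downstream exon) and Pkm-202 (upstream exon) also differ in total length, 2432 and 2041 bases, so their shares rest on more than the exon pair. Pklr, the pyruvate kinase of liver and red cells, had no count in either library.

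Ldha was at 376.5 and 274.6 TPM and Ldhb, the heart-type subunit, at 5.01 and 2.76, so Ldha held 98.8% ± 0.225. Lactate leaves the cell with protons through the Slc16a family. Slc16a3, the exporter typical of glycolytic cells, was at 13.7 and 20.4 TPM and Slc16a1, the widespread form, at 6.87 and 6.78. Slc16a3 held 70.8% ± 5.92 of this pair. Slc16a7, a transporter with high affinity for pyruvate and lactate that is outside the 38, was higher than both at 26.9 and 28.6 TPM, and held 53.9% ± 3.78 of the 3. Bsg, the chaperone that carries Slc16a1 and Slc16a3 to the membrane, was at 297.2 and 248.2 TPM.

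**Figure D2:**
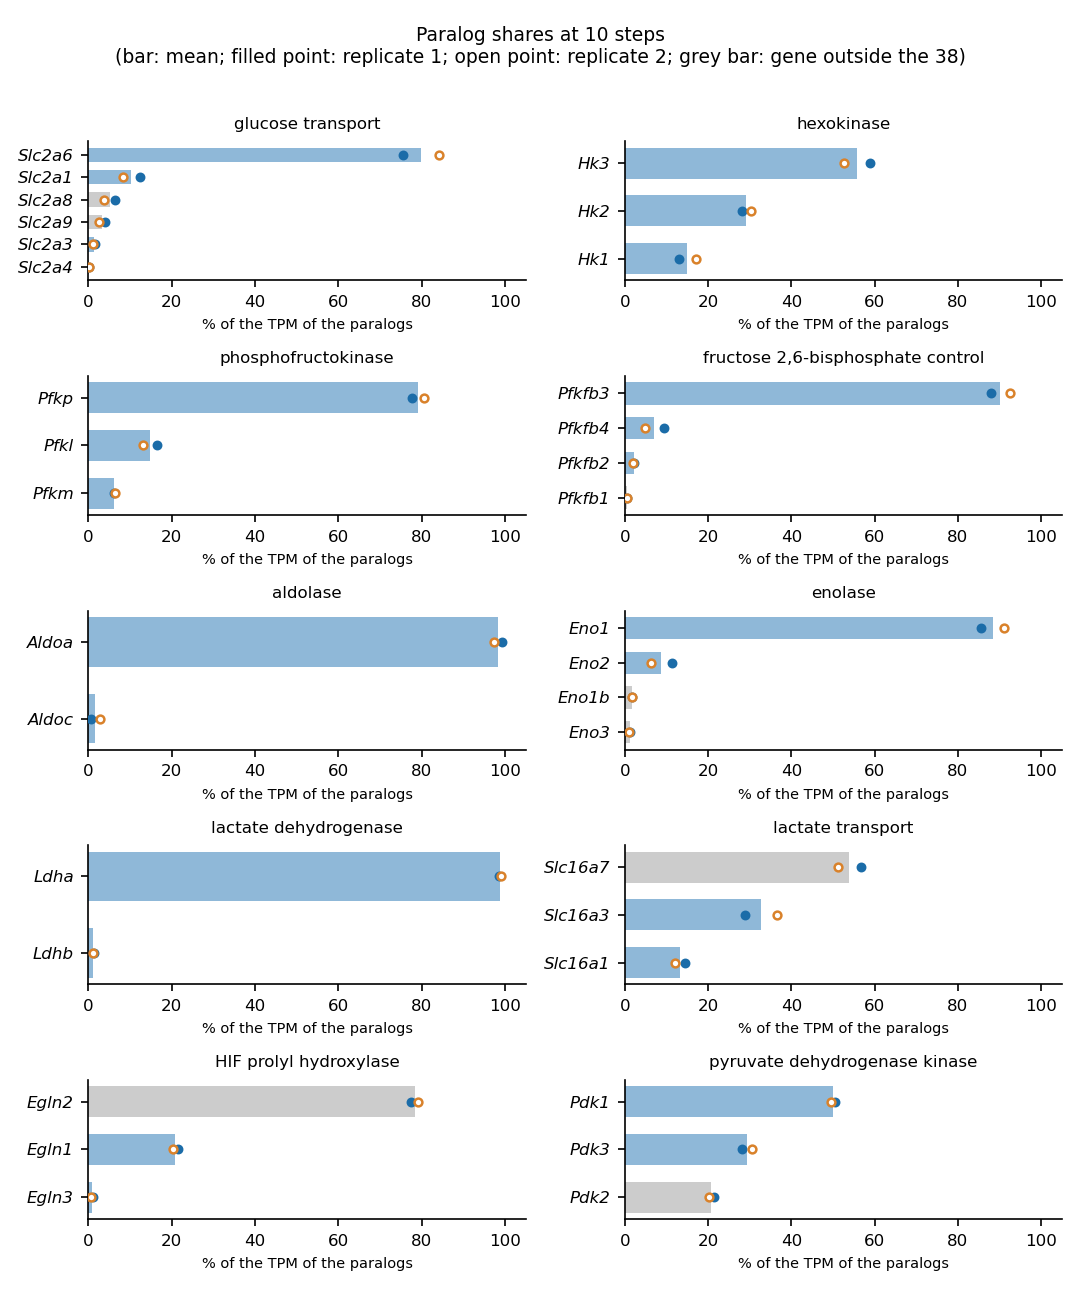
Share of each paralog in the summed TPM of its step, in percent, with bars for the mean of both libraries, filled points for replicate 1 and open points for replicate 2; grey bars are genes outside the 38 and genes under 0.1% are left out. A gene of the 38 leads at 8 steps, while Slc16a7 leads lactate transport and Egln2 the prolyl hydroxylases.

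Counted within the 38 genes, 7 of the 10 steps with several paralogs had 1 gene at 75% or more of the TPM. These were Slc2a6, Pfkp, Pfkfb3, Aldoa, Eno1, Ldha and Egln1. The hexokinases, lactate transporters and pyruvate dehydrogenase kinases were divided more evenly. On the TPM scale the leading gene of each step was the same in both libraries and in both quantifications.

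Hif1a was at 80.0 and 60.4 TPM. Arnt, the partner with which it binds DNA, was at 18.2 and 17.4 TPM, and Epas1, the related factor HIF-2α, at 2.73 and 1.67. Hif3a had no RSEM count in either library and 2.0 and 7.5 in kallisto. Of the prolyl hydroxylases, Egln1, regarded as the main oxygen sensor, was at 7.18 and 8.23 TPM and Egln3, which is itself induced by hypoxia in many cells, at 0.34 and 0.20. Egln2, outside the 38, was at 25.9 and 32.1 TPM and held 78.4% ± 1.22 of the 3. Hif1an, which hydroxylates an asparagine of Hif1a, was at 8.09 and 7.13 TPM, and Vhl, which carries hydroxylated Hif1a to degradation, at 9.29 and 8.45.

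Hif1a has 2 alternative first exons, at chr12:73901375-73901498 and chr12:73907904-73908324 on the plus strand. Hif1a-201, which starts at the downstream exon and has 2508 coding bases, held 53.3% and 55.8% of the gene's TPM in RSEM. Hif1a-202, which starts upstream and has 2430, held 46.5% and 44.2%. Kallisto gave Hif1a-201 62.7% and 67.1%, so the downstream start held more than 50% in each of the 4 estimates.

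Of 23 genes known as hypoxia-linked targets in other cells, 20 reached 1 TPM and 12 reached 10 TPM in both libraries. The median of the 23 was 12.1 TPM, below the 14.1 TPM over the 10271 genes at 1 TPM or more in both libraries. Among the highest were Hmox1, a heme-degrading enzyme, at 390.2 and 191.6 TPM, Mif, a cytokine, at 208.7 and 177.7, and Hilpda, a lipid droplet protein, at 156.1 and 83.2. Without an unstimulated group these levels do not show a response.

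The kinases that restrain pyruvate dehydrogenase, the mitochondrial complex that turns pyruvate into acetyl-CoA, were below the median of the 38 genes. Pdk1 was at 12.1 and 10.4 TPM and Pdk3 at 6.75 and 6.43, so Pdk1 held 63.0% ± 1.66 of the pair. Pdk2 was close behind Pdk3 at 5.12 and 4.24, with all values of Pdk3 above those of Pdk2. Pdk4 had no RSEM count in either library and 2.0 in each in kallisto. The opposing phosphatase Pdp1 was at 6.85 and 8.43 TPM, Pdp2 at 1.88 and 2.41, and the regulatory subunit Pdpr at 4.77 and 4.63. Kallisto put Pdk1 at 14.9 and 13.8 TPM, a log2 difference of 0.35 from RSEM, the highest among the 38 genes.

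**Figure D3:**
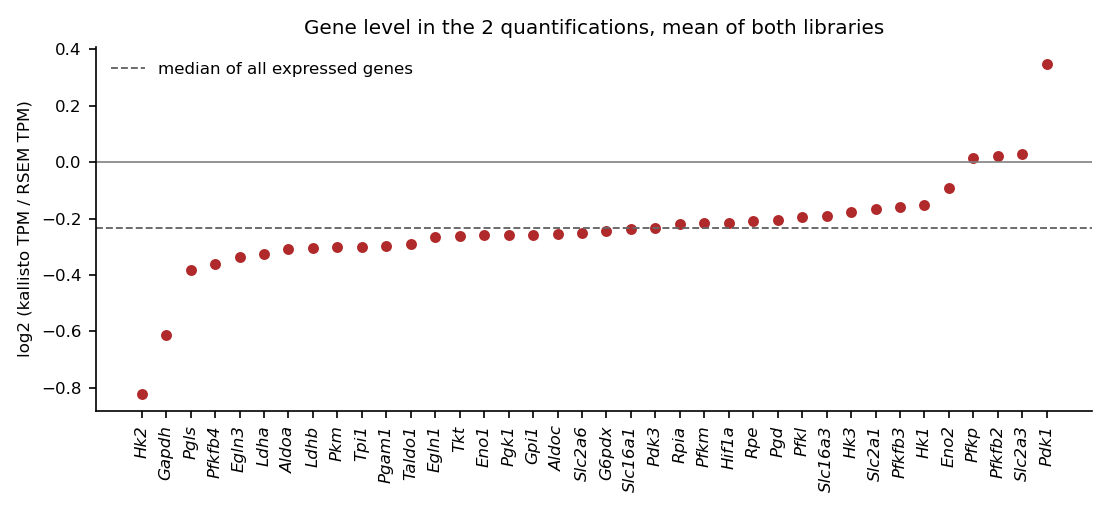
Log2 of kallisto TPM over RSEM TPM for each of the 38 genes, averaged over both libraries, in rising order, with the median of all expressed genes (-0.23) as a dashed line. Hk2 (-0.82) and Gapdh (-0.61) lie lowest and Pdk1 (0.35) highest.

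In the oxidative pentose phosphate branch, G6pdx, the glucose 6-phosphate dehydrogenase that makes the first NADPH, was at 131.7 and 131.6 TPM. Pgls, the lactonase that follows, was at 46.6 and 44.8 TPM, and Pgd, which makes the second NADPH, at 221.9 and 230.9. The sum of these genes differed little between the libraries, at 400.3 and 407.3 TPM. H6pd, the enzyme of the endoplasmic reticulum that runs the same first steps, was at 9.28 and 9.39 TPM.

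In the non-oxidative branch, which interconverts sugar phosphates, Taldo1 (transaldolase) was at 312.9 and 274.0 TPM and Tkt (transketolase) at 131.7 and 127.6. Rpe, the ribulose phosphate epimerase, was at 18.6 and 16.6 TPM and Rpia, the ribose phosphate isomerase, at 6.65 and 4.48. The enzymes that exchange carbon units with glycolysis were thus higher than those that interconvert pentose phosphates, in both libraries. Tktl1 and Tktl2 had no count in either library. Tkt-209, annotated as a processed transcript with no coding bases, held 68.0% ± 0.205 of the Tkt TPM and the coding Tkt-201 24.9% ± 1.70. Kallisto gave Tkt-209 79.9% ± 1.10. Both models have 14 exons, but they are 1962 (Tkt-209) and 3223 (Tkt-201) bases long, so the TPM shares depend on length. On RSEM counts Tkt-209 held 59.1% and 57.5% and Tkt-201 35.9% and 38.7%. Whether Tkt-209 RNA is translated was not tested. Bpgm, which makes 2,3-bisphosphoglycerate from an intermediate of glycolysis, was at 3.09 and 3.06 TPM.

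The isoforms were judged in the 21 genes at 20 TPM or more on average. In RSEM the leading transcript held a median of 83.5% of the TPM, over 90% in 9 genes and under 50% in 2, Pfkfb3 and Pfkp. In kallisto it was under 50% in Pfkfb3 (47.9%) and Hk1 (46.2%), and held 53.9% in Pfkp. For Tkt alone the leading transcript was not annotated as protein coding. Among all 38 genes the leading transcript differed between libraries or quantifications in 7, which were Slc2a3, Pfkp, Pfkfb3, Pfkfb4, Aldoc, Eno2 and Pdk1.

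Pfkfb3 was split between 3 coding transcripts. In RSEM Pfkfb3-220, which starts at the upstream first exon, held 43.9% in replicate 1 and 29.0% in replicate 2, Pfkfb3-214 34.5% and 34.2%, and Pfkfb3-206 16.2% and 29.2%. Kallisto gave Pfkfb3-220 only 4.33% and 2.85%, Pfkfb3-214 34.4% and 33.3%, and Pfkfb3-206 48.7% and 47.1%. The share of the downstream first exon was 62.6% ± 10.4 (SD, n = 2) in RSEM and 95.9% ± 1.16 in kallisto, so its majority held in all estimates but its size did not. The cassette exon printed above was included in 36.4% ± 0.166 in RSEM and 38.7% ± 0.274 in kallisto, and this value was close in both libraries and both quantifications.

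Pfkp used both exons of its pair. The upstream exon was in 48.8% and 52.4% of the TPM of transcripts with either exon in RSEM, and in 36.6% and 33.6% in kallisto. Which exon led was therefore not settled by RSEM, where the libraries fell on both sides of 50%, whereas kallisto gave the downstream exon the larger share in both. Pfkp-201 and Pfkp-207 also differ in total length, 2679 and 4145 bases, so their shares rest on more than the exon pair. Exons of Pfkp and of Pitrm1, on the opposite strand, share 748 bases, and strand use in the counting is not given in the sources used here.

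Hk1 was compared at 2 of its first exons, counted over Hk1-202 (downstream) and Hk1-201 (upstream) alone of its 20 transcripts. The downstream one had 70.6% ± 6.50 of their TPM in RSEM and 65.6% ± 4.10 in kallisto. Kallisto gave a further coding transcript, Hk1-205, 24.9% in both libraries, and RSEM gave it 0%. Aldoc was led by Aldoc-202 in replicate 1 (50.04%) and by Aldoc-201 in replicate 2 (66.6%), while kallisto had Aldoc-202 ahead in both, at 68.3% and 52.4%. For Pdk1, RSEM gave the coding Pdk1-201 53.5% and 75.9%, and kallisto 26.7% and 29.1%, behind the short non-coding Pdk1-206 at 35.1% and 34.8%. Eno2 was spread over many transcripts, with the coding Eno2-202 at 27.2% and 31.0% in RSEM and 15.5% and 19.7% in kallisto. Kallisto was led by transcripts annotated as retained introns, Eno2-211 in replicate 1 (20.8%) and Eno2-203 in replicate 2 (23.8%). In RSEM Eno2-203 held 14.9% and 18.4%, and Eno2-211 17.3% and 10.45%, so part of the Eno2 level is not from coding transcripts. Slc2a3-201 led Slc2a3 in RSEM at 68.7% and 61.0%, and kallisto gave it 55.2% and 43.4%.

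**Figure D4:**
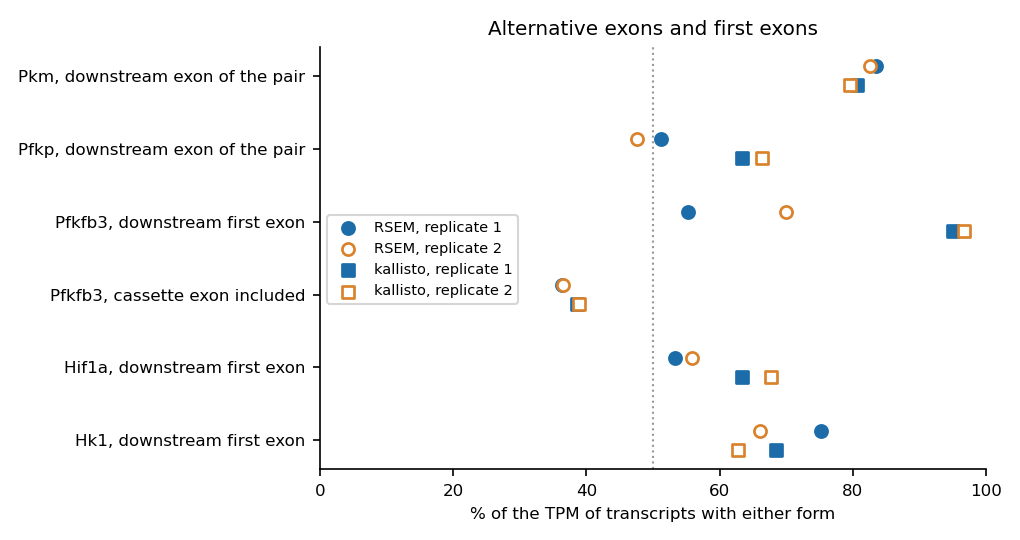
Share of the named exon or first exon in the TPM of transcripts with either form, in percent, for RSEM (circles) and kallisto (squares), replicate 1 filled and replicate 2 open; the dotted line is 50%. The downstream Pkm exon and the Pfkfb3 cassette exon are close in all 4 estimates, while the Pfkfb3 first exon and the Pfkp exon differ between the quantifications.

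The libraries were also compared gene by gene, as a description with no test, over genes with a mean expected count of 50 or more and after TMM scaling. Of the 37 genes that passed this minimum, 2 were 1.5-fold or more higher in replicate 2, Aldoc and Slc2a6, against 7.46% of the 10445 genes compared. A further 3 were 1.5-fold or more lower in replicate 2, Eno2, Ldhb and Rpia, against 7.14%. As a difference of log2(TPM + 1) Rpia was at -0.48, under 1.5-fold, and Pfkfb4 at -0.75, past it. The 5 genes were 13.5% of the 37, and 14.6% of all genes lay that far apart, so the share was near the background. Aldoc alone was 2-fold or more apart, or 2.70% of the 37, against 3.99% of all genes. The log2 ratios of replicate 2 over replicate 1 were 2.18 for Aldoc, 0.75 for Slc2a6, -0.61 for Rpia and -0.87 for both Eno2 and Ldhb. The median ratio of the 37 genes was -0.01 on the log2 scale, and that of all genes was 0.03. Of the 37 genes, 18 were higher and 19 lower in replicate 2, and of all genes 53.5% were higher and 46.5% lower. The median size of the ratio, without its sign, was 0.18 for these genes and 0.24 for all. The granulocyte and platelet marker sums given above were also higher in replicate 1, and their part in the ratios of Eno2, Ldhb and Rpia was not tested.

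**Figure D5:**
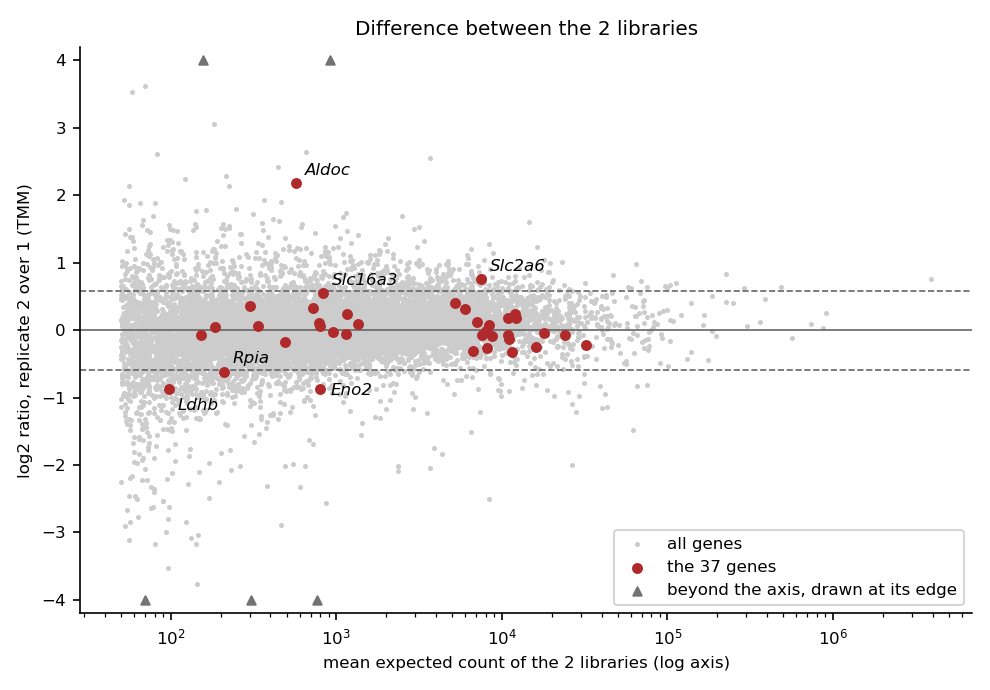
Log2 ratio of TMM-scaled counts, replicate 2 over replicate 1, against the mean expected count on a log axis, for all 10445 genes (grey) and 37 of the 38 genes (red); dashed lines are 1.5-fold and triangles at the edge are 5 genes beyond 4 on the log2 scale. Aldoc (2.18) and Slc2a6 (0.75) lie above the lines, and Eno2, Ldhb and Rpia below.

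The 38 genes lie on 16 chromosomes, with 7 of them on chromosome 6, namely Rpia, Hk2, Slc2a3, Eno2, Tpi1, Gapdh and Ldhb. On chromosome 6 Eno2 and Tpi1 lie 40913 bases apart, and Tpi1 and Gapdh 347419 bases apart. Eno2 (chr6:124760053-124769673), Tpi1 (chr6:124810586-124814296) and Gapdh (chr6:125161715-125166467) are all on the minus strand, and their levels spanned 18.8, 187.3 and 1318 TPM on average. Pgk1, Pdk3 and G6pdx are on the X chromosome. Exons of G6pdx share 418 bases with Ikbkg, those of Rpe 558 with Kansl1l and those of Gpi1 741 with Gm26762 (6.0 and 12.0 counts). These are on the opposite strand, and without a stated strand their reads there cannot be told apart. On the same strand, exons of Pkm share 767 bases with Gm49759 (114.1 and 188.4 counts). Those of Pgls share 776 with Fam129c (8.0 and 12.0 counts), also on the same strand.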

How the data were processed

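Polyadenylated RNA of 2 libraries was analysed. Per the file headers the authors deposited RSEM gene and transcript tables holding expected counts and TPM, plus each transcript's share of its gene in percent (IsoPct), and kallisto transcript tables with estimated counts and TPM. The deposited descriptions name mm10 and GENCODE M21; program versions and strand settings are not given in the sources used here. Mouse genes alone were kept, and of symbols with several identifiers the one with more counts. Expected counts were rounded for TMM scaling (edgeR 4.0.16, R 4.3.3), and ratios were taken at a mean of at least 50 counts. Kallisto TPM was summed by gene. Copies were sought with BLAST 2.17.0, and Python 3.11.15, numpy 2.4.6, pandas 2.3.3 and matplotlib 3.10.9 did the rest. Exon shares are over transcripts with either form. Promoters are RefSeq windows matched by symbol, 37 of 38. The 3-count floors reflect counting error alone, as no molecular identifiers mark single molecules.

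The genes and lists were chosen with earlier results of these data known. All 38 genes are named, other paralogs at 1 TPM or more in both libraries, the 4 highest genes of the hypoxia-linked and macrophage lists, and copies with 10 counts or more; a gene that this rule would name is not reported here. Isoforms are described for Pfkfb3, Pfkp, Pkm, Hif1a and genes whose leading transcript changed; those of Tkt, Hk1, Hk2, Gapdh and Gpi1 were added after their values were seen. With 1 group there is no test between conditions. Alternatives were other TPM, count and share minimums, DESeq2 1.42.0 size factors, kallisto, posterior mean TPM, TPM without mitochondrial genes and each library alone.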

Additional observations from a re-analysis of the deposited data

How the results depend on the processing

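The count of genes at 1 TPM or more in both libraries stayed between 31 (at a minimum of 5 TPM) and 37 in all alternatives, their median between 52.5 and 60.5 TPM, the steps with a share of 75% or more between 5 (at a minimum of 90%) and 8, and genes 1.5-fold apart between 4 and 6. Of those genes Ldhb was lost at a mean count of 200 or more, and Rpia with log2(TPM + 1), where Pfkfb4 entered; Egln3 entered at a mean count of 10 or more. On the gene strand alone 28 genes (75.7%) had a promoter match, against 32.7% of all genes and 50.4% of expressed genes, and on both strands 33. The median log2 ratio of the pathway genes between the libraries lay near 0 and changed sign, at 0.002 with DESeq2 size factors and 0.025 at a mean count of 200 or more; it was -0.175 with library size alone and -0.15 as a difference of log2(TPM + 1). The median of all genes moved alongside, from 0.028 to -0.138 and -0.085, so relative to all genes it stayed between -0.065 and -0.026. The leading gene's share changed with expected counts, which do not divide by length, to 82.1% for glucose transport, 49.3% for hexokinase, 94.5% for fructose 2,6-bisphosphate control, 99.2% for lactate dehydrogenase, 50.4% for lactate transport and 77.3% for pyruvate dehydrogenase kinase. For lactate transport the lead on counts differed between the libraries. Slc16a1 (642) was ahead of Slc16a3 (561) in replicate 1, and Slc16a3 (1106) ahead of Slc16a1 (933) in replicate 2. With kallisto the leading gene's share was 62.0% for hexokinase, 81.5% for phosphofructokinase and 71.9% for pyruvate dehydrogenase kinase. With the other paralogs, an alternative chosen after seeing the data, that share was 79.9% for glucose transport and 49.9% for pyruvate dehydrogenase kinase. Slc16a3 (32.7%) and Egln1 (20.9%) lost the lead. At a gene minimum of 5 TPM, 5 genes had a leading transcript under 50%. The leading RSEM transcript lost its lead in kallisto for Pfkp (25.1%), Pfkfb3 (3.59%), Aldoc (38.9%), Eno2 (17.6%) and Pdk1 (27.9%). Between single libraries its share ran from 42.4% to 46.1% for Pfkp, from 29.0% to 43.9% for Pfkfb3, from 28.4% to 51.4% for Pfkfb4 and from 41.0% to 66.6% for Aldoc. The upstream Pfkp exon, also added later, held 35.1% in kallisto and from 48.8% to 52.4% in single libraries. The cause of these changes was not tested. No paired analysis was possible because the series holds 1 group. With 2 libraries the spread rests on 1 degree of freedom.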
